A study of Mus musculus with 23 samples.

Results

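Liver sinusoidal endothelial genes are described here through 10 symbols, Stab1, Stab2, Clec4g, Lyve1, Fcgr2b, Kdr, Pecam1, Cd34, Oit3 and Gpr182, across mouse livers of 3 labelled genotypes on 2 diets. They were taken by symbol from a table of estimated counts for 24440 genes, in a choice made with earlier results of these data known. All 10 were among the 12891 genes with enough counts to be tested. The lowest count of any of them in any library was 8, for Cd34.

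The 6 groups were high-fat diet and chow livers of IL-10/IL-4 double knockout mice (dKO_HFD and dKO_chow, n = 4 each), of IL-4 knockout mice (IL4KO_HFD, n = 3, and IL4KO_chow, n = 4) and of wild-type mice (WT_HFD and WT_chow, n = 4 each). All were males on a C57Bl/6 background, bought from Taconic Farms at an age of 6 to 8 weeks and kept on their diet for 15 weeks. The high-fat diet (HFD) took 60% of its energy from fat. Both knockout lines lack Il4 by their labels. How the alleles were made, and whether the wild-type mice were littermates, is not given in the sources used here. Livers were perfused, which washes blood from the vessels, and RNA of a whole piece of liver was sequenced, so every value mixes all cell types of that piece. The series' design counts each library as 1 mouse, and p-values measure the spread between these mice.

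Liver sinusoids are lined by a thin endothelium with open pores and no continuous basement membrane. These cells clear waste proteins, immune complexes and hyaluronan from blood with scavenger receptors and lectins, and signalling through the receptor encoded by Kdr helps keep their specialised state. In chronic injury the lining can take on features of ordinary capillaries, a process called capillarisation, in which pores are lost, basement membrane is laid down and Cd34 can appear.

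Promoter sequences were matched by symbol for 6 of the 10 genes in RefSeq's GRCm38.p6 table (Stab1, Stab2, Clec4g, Kdr, Fcgr2b and Cd34), and not for Lyve1, Pecam1, Oit3 and Gpr182. The 4 shown belong to genes whose levels differed between groups below. Each is the 250 bases before the gene's start in RefSeq, 5′ to 3′ on the gene's own strand, and capitals mark AGGAAG, the core bound by ETS-family factors, or its reverse complement CTTCCT.
Clec4g (chr8:3720652-3720901, minus strand): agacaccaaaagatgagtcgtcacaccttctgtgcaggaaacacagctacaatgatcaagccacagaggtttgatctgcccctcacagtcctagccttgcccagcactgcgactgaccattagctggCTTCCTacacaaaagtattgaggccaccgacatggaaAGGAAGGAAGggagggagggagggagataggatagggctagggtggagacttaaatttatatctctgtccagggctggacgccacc
Kdr (chr5:75978456-75978705, minus strand): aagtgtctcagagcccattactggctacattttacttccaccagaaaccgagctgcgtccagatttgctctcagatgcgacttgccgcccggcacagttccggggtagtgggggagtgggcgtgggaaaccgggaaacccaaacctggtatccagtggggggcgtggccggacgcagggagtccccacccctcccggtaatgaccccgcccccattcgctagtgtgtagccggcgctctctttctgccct
Fcgr2b (chr1:170976072-170976321, minus strand): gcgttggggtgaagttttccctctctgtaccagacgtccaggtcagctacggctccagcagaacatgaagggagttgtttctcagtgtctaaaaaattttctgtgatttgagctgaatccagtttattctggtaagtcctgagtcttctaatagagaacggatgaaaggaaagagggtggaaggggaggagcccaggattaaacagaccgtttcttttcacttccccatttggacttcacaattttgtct
Cd34 (chr1:194938571-194938820, plus strand): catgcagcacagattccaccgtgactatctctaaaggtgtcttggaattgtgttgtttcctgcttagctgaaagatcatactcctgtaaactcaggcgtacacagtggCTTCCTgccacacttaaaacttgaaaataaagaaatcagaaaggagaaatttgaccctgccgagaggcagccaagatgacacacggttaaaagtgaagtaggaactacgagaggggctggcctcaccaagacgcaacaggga
On either strand, AGGAAG was present in 4 of the 6 matched promoters (Stab1, Stab2, Clec4g and Cd34) and in 29.5% of the 32851 promoters of that length. Clec4g held it at positions -123, -86 and -82 from the start, the last pair overlapping, and Cd34 held it at -142. AGATAA, the core bound by GATA-family factors, was in 0 of the 6 and in 9.99% of all promoters, while TATAAA was in 1 of the 6 (Clec4g, at -31 on the opposite strand) and in 12.4%. These are matches of letters in a window only. Gene positions below come from another annotation, GENCODE M21, whose gene starts lie within 3 bases of RefSeq's for Stab1, Clec4g, Kdr and Cd34. RefSeq's start lies 83 bases inside the GENCODE gene for Stab2 and 476 bases inside it for Fcgr2b, so the stretch printed for Fcgr2b is wholly within the GENCODE gene.

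Library totals were 12692787 to 25460163 counts in dKO_HFD, 16220799 to 30205070 in dKO_chow, 7788331 to 8935346 in IL4KO_HFD, 7114454 to 11179738 in IL4KO_chow, 8601857 to 18240402 in WT_HFD and 10878989 to 12546497 in WT_chow, so the smallest libraries are in the IL4KO groups. Il10, the gene targeted with Il4 in the double knockout, had 6 to 21 counts in the dKO_HFD libraries and 41 to 67 in the dKO_chow libraries, against 0 to 4 in the other groups. These counts do not bear out the label. Whether those reads lie in the deleted stretch cannot be read from a count per gene, so dKO stands for "the libraries labelled dKO" throughout. Il4 had 0 to 3 counts in every group and checks nothing. On the first principal component of all tested genes (39% of the variance), the dKO_chow libraries lay at 64.6 to 74.8 and dKO_HFD replicate 4 at 43.1, while the other dKO_HFD libraries lay at -17.2 to -10.2. IL4KO_HFD replicate 2 lay at 0.701, against -31.8 and -28.3 for the other two of its group. Results that rest on dKO_HFD replicate 4 or IL4KO_HFD replicate 2 are given with and without it.

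Levels are given in CPM, counts scaled to a common library size, and group levels as mean ± SD over libraries. Calls are those of edgeR's quasi-likelihood test, two-sided, at a Benjamini-Hochberg adjusted p (FDR) below 0.05 over the 12891 tested genes. A diet effect is HFD over chow within 1 genotype. Lyve1 and Cd34 had the largest changes among the 10 genes. Lyve1 rose on HFD in WT and IL4KO livers, while Clec4g and Kdr fell there. The IL4KO calls of these genes were lost without IL4KO_HFD replicate 2, and the WT call of Kdr without any of several single libraries. In dKO livers Kdr, Oit3 and Stab2 rose on HFD and Cd34 fell. Against WT_chow, dKO_chow livers had more Cd34 and Lyve1 and less Fcgr2b, Oit3 and Kdr. The Stab2 rise in dKO and the higher Lyve1 in dKO_chow were also lost without any of several single libraries. Stab1, Pecam1 and Gpr182 passed the test in 0 of the 9 pairs of groups.

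**Figure D1:**
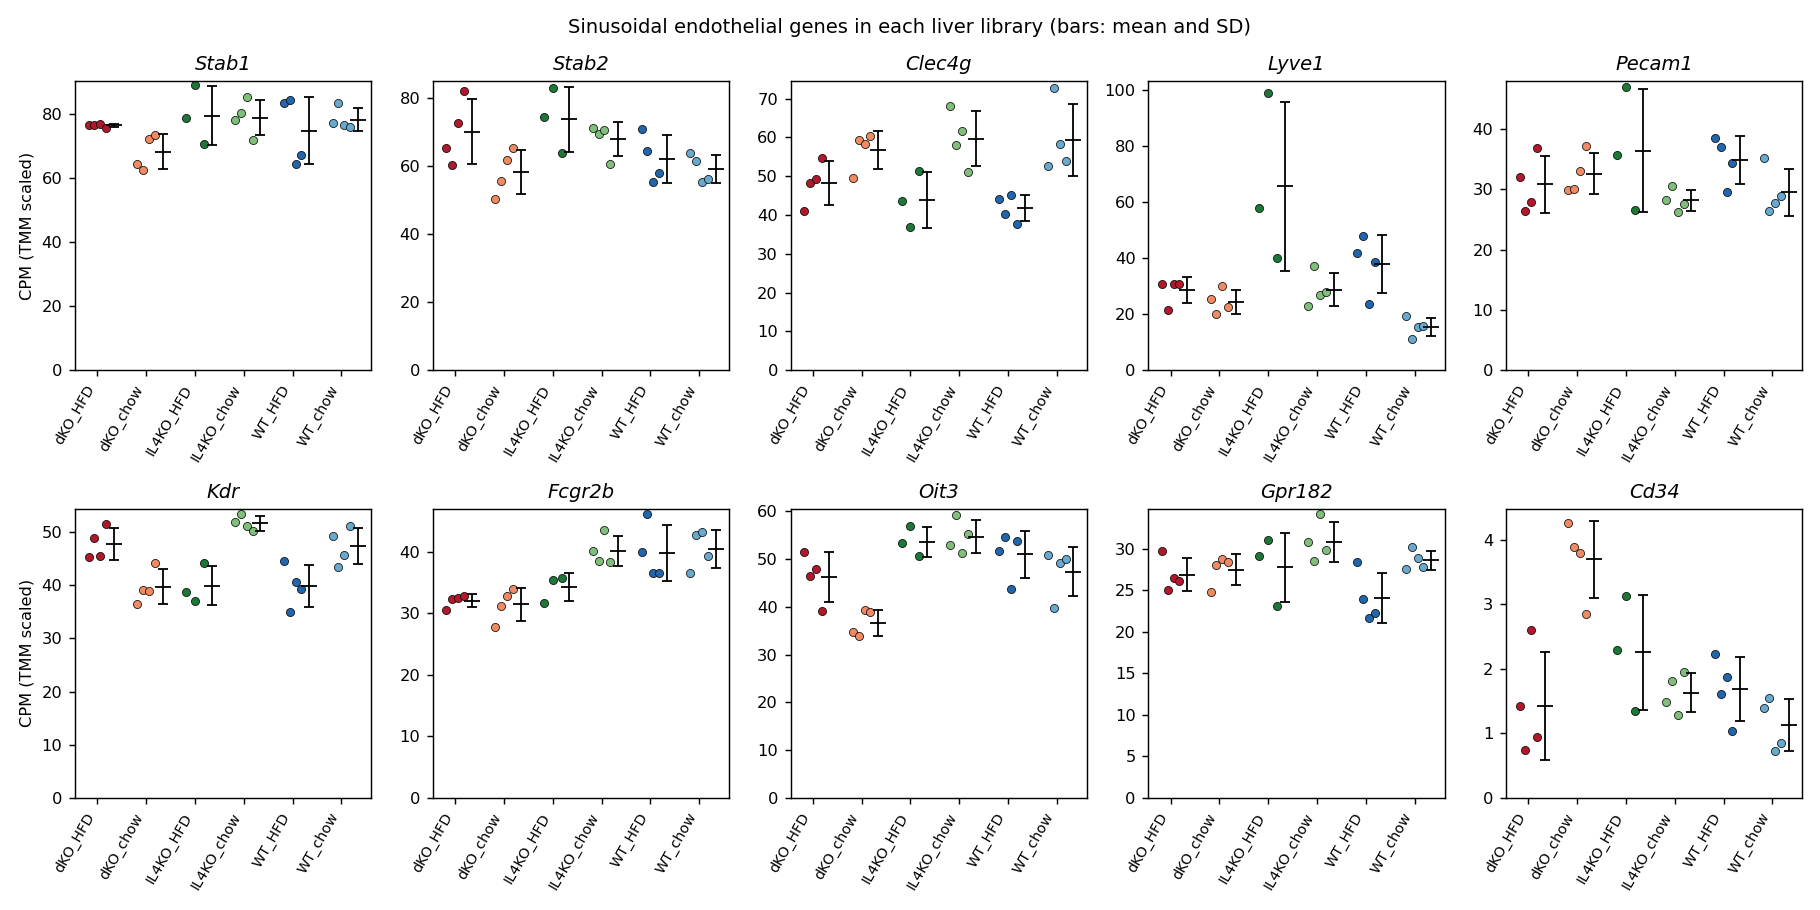
CPM of each of the 10 genes (vertical axes, linear, each from its own scale) in every library, by group from dKO_HFD on the left to WT_chow on the right; points are libraries and bars are group means with SD. Lyve1 reaches 98.9 CPM in 1 IL4KO_HFD library and lies at 11.3 to 19.4 CPM in WT_chow, and Cd34 is highest in dKO_chow at 2.85 to 4.26 CPM.

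Lyve1 encodes a receptor for hyaluronan that marks sinusoidal and lymphatic endothelium and some macrophages. The gene lies at chr7:110850607-110863239 on the minus strand (mm10, GENCODE M21) and overlaps no other annotated gene. Its level was 30.9, 21.6, 30.9 and 30.9 CPM in dKO_HFD libraries, against 25.3, 20.0, 30.0 and 22.5 CPM in dKO_chow libraries. In IL4KO livers it was 57.9, 98.9 and 40.1 CPM on HFD, against 23.0, 37.1, 27.0 and 28.0 CPM on chow. In WT livers it was 41.9, 47.9, 23.6 and 38.6 CPM on HFD, against 19.4, 11.3, 15.3 and 15.6 CPM on chow. On HFD every IL4KO library and every WT library lay above all chow libraries of its own genotype, while the dKO groups overlapped, and IL4KO_HFD replicate 2 was the highest of all libraries. By group mean the order was IL4KO_HFD, WT_HFD, IL4KO_chow, dKO_HFD, dKO_chow and WT_chow, and neighbours overlapped in range except dKO_chow and WT_chow.

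Lyve1 averaged 38.0 ± 10.3 CPM in WT_HFD and 15.4 ± 3.34 CPM in WT_chow (SD, n = 4 each), a 2.49-fold rise (95% interval 1.70 to 3.63, log2 change 1.32, SE 0.26, FDR 0.00202) that kept its call under every alternative run. In IL4KO livers the means were 65.7 ± 30.2 CPM on HFD (n = 3) and 28.8 ± 5.96 CPM on chow (n = 4), a 2.28-fold rise (log2 change 1.19, FDR 0.0103). Without IL4KO_HFD replicate 2 that log2 change was 0.78 with an FDR of 0.14, so the IL4KO call rested on this library. It was also not called when the IL4KO groups were fitted alone (FDR 0.0916). In dKO livers the means were 28.6 ± 4.62 CPM on HFD and 24.5 ± 4.27 CPM on chow (n = 4 each), which did not pass the test (FDR 0.498, 95% interval of the fold 0.817 to 1.67). A bulk sample cannot tell a change in the number of cells that carry a transcript from a change in the transcript per cell.

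On chow, Lyve1 was higher in dKO_chow than in WT_chow (1.59-fold, log2 change 0.67, FDR 0.0426) and higher in IL4KO_chow than in WT_chow (1.88-fold, log2 change 0.91, FDR 0.0369). The ranges did not overlap in either comparison, but both calls were lost without any of several single libraries. The dKO_chow call went at FDR 0.0742, 0.124 and 0.058 without dKO_chow replicate 1, 3 and 4, and at 0.137, 0.0853 and 0.0818 without WT_chow replicate 2, 3 and 4. The IL4KO_chow call went at FDR 0.123, 0.0602 and 0.0679 without IL4KO_chow replicate 2, 3 and 4, and at 0.123, 0.0805 and 0.0715 without WT_chow replicate 2, 3 and 4. On HFD, Lyve1 was lower in dKO_HFD than in IL4KO_HFD (0.432-fold, 95% interval 0.295 to 0.634, log2 change -1.21, FDR 0.0226). Here too IL4KO_HFD replicate 2 weighed most: without it the log2 change was -0.79 and the FDR 0.221. The call also went at FDR 0.0507 without IL4KO_HFD replicate 1, at 0.0703 without dKO_HFD replicate 2 and at 0.0536 without dKO_HFD replicate 4, and at 0.408 with both groups fitted alone. IL4KO_HFD against WT_HFD was not called (log2 change 0.78, FDR 0.123), and was called without IL4KO_HFD replicate 3 (log2 change 1.04, FDR 0.0463), while without IL4KO_HFD replicate 2 the log2 change was 0.36 (FDR 0.45).

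Clec4g encodes LSECtin, a C-type lectin of the sinusoidal surface, and lies at chr8:3707064-3720651 on the minus strand (mm10), overlapping the antisense gene Gm16553. It was at 40.9, 48.3, 49.4 and 54.8 CPM in dKO_HFD libraries, against 49.6, 59.3, 58.2 and 60.3 CPM in dKO_chow libraries. In IL4KO livers it was at 43.5, 36.9 and 51.3 CPM on HFD, against 68.0, 58.2, 61.6 and 51.0 CPM on chow. In WT livers it was at 44.1, 40.3, 45.1 and 37.7 CPM on HFD, against 52.5, 72.7, 58.2 and 53.9 CPM on chow. The WT groups did not overlap, the IL4KO groups overlapped at 1 library each, and the dKO groups overlapped. The group means ran in the order IL4KO_chow, WT_chow, dKO_chow, dKO_HFD, IL4KO_HFD and WT_HFD, the 3 chow groups above the 3 HFD groups, and all neighbours overlapped.

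Mean Clec4g was 41.8 ± 3.42 CPM in WT_HFD and 59.4 ± 9.24 CPM in WT_chow, a fall to 0.702-fold (log2 change -0.51, 95% interval -0.75 to -0.27, SE 0.12, FDR 0.00399) that kept its call under every alternative run. In IL4KO_HFD it fell to 43.9 ± 7.20 CPM, against 59.7 ± 7.09 CPM in IL4KO_chow (log2 change -0.45, FDR 0.0303). That call was lost at FDR 0.0859 and 0.251 without IL4KO_HFD replicate 1 and 2, and at 0.105, 0.0524 and 0.0673 without IL4KO_chow replicate 1, 2 and 3. It was also lost with the IL4KO groups fitted alone (FDR 0.077), on thinned counts (FDR 0.0547) and on the deposited log2 values (FDR 0.0551). In dKO livers the means were 48.4 ± 5.68 CPM on HFD and 56.9 ± 4.90 CPM on chow, with a log2 change of -0.23 that was not called (FDR 0.104). Without dKO_HFD replicate 4 it was called, at a log2 change of -0.29 and an FDR of 0.0496, and with upper quartile scaling at FDR 0.0393. Clec4g passed the test in 0 of the 6 comparisons between genotypes, and in 0 of the 3 tests of a difference between diet effects.

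Fcgr2b encodes the inhibitory Fc receptor for immunoglobulin G, which takes up small immune complexes in the sinusoid and is also made by B cells and macrophages. It lies at chr1:170958617-170976547 on the minus strand (mm10) and overlaps the antisense gene Gm38204. It has a closely similar paralog, Fcgr3, and its deposited values were not whole in 21 of the 23 libraries, so its counts are less certain than those of the other 9 genes. It was at 30.6, 32.3, 32.5 and 32.8 CPM in dKO_HFD libraries, against 27.8, 31.2, 32.8 and 33.9 CPM in dKO_chow libraries. IL4KO livers had 31.7, 35.3 and 35.8 CPM on HFD, against 40.2, 38.5, 43.5 and 38.3 CPM on chow. WT livers had 39.9, 46.0, 36.4 and 36.5 CPM on HFD, against 36.5, 42.7, 43.1 and 39.3 CPM on chow. All 8 dKO libraries lay below all 8 WT libraries, and the order of means was WT_chow, IL4KO_chow, WT_HFD, IL4KO_HFD, dKO_HFD and dKO_chow, with WT_HFD and IL4KO_HFD the only neighbours that did not overlap.

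Fcgr2b fell to 31.4 ± 2.67 CPM in dKO_chow, against 40.4 ± 3.11 CPM in WT_chow (0.777-fold, log2 change -0.36, SE 0.08, FDR 0.000826) and 40.1 ± 2.40 CPM in IL4KO_chow (log2 change -0.35, FDR 0.00121). In dKO_HFD it was at 32.0 ± 1.01 CPM, against 39.7 ± 4.52 CPM in WT_HFD (0.807-fold, log2 change -0.31, FDR 0.00719). These 3 calls were kept under every alternative run, and without dKO_HFD replicate 4 the last had a log2 change of -0.32 and an FDR of 0.012. Fcgr2b passed the test in 0 of the 3 diet effects, though all IL4KO_HFD libraries lay below all IL4KO_chow libraries (log2 change -0.23, FDR 0.112). In dKO_HFD against IL4KO_HFD, at 34.2 CPM on average, it was not called either (log2 change -0.095, FDR 0.585). Of 13 Kupffer cell markers, 11 were higher and 1 lower in dKO_chow than in WT_chow, and 1 of the 3 tested B cell markers was higher. Of all tested genes 24.4% were higher and 21.9% lower there, and the B cell count is near that share. The part of these cells in the Fcgr2b difference was not tested.

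Stab1 and Stab2 encode stabilin-1 and stabilin-2, large scavenger receptors of the sinusoid, stabilin-1 being shared with macrophages. Stab1 lies at chr14:31139013-31168641 and Stab2 at chr10:86841198-87008025, both on the minus strand (mm10), and both overlap genes of the other strand (Nt5dc2 for Stab1, 5 pseudogenes and antisense genes for Stab2). Stab2 was at 65.3, 60.2, 72.7 and 82.2 CPM in dKO_HFD libraries, against 50.4, 55.6, 61.6 and 65.3 CPM in dKO_chow libraries, groups that overlapped. Its mean rose 1.20-fold to 70.1 ± 9.54 CPM in dKO_HFD, against 58.2 ± 6.60 CPM in dKO_chow (log2 change 0.27, SE 0.10, FDR 0.0425). That was 1 call in 9 pairs and it was lost at FDR 0.0893 and 0.137 without dKO_HFD replicate 3 and 4, and at 0.147 and 0.1 without dKO_chow replicate 1 and 2. With upper quartile scaling it was lost at FDR 0.166 and on the deposited log2 values at 0.213. Stab2 in dKO_chow against IL4KO_chow was not called (log2 change -0.22, FDR 0.0826), and was called at FDR 0.0454 without dKO_chow replicate 4 and at 0.0303 without IL4KO_chow replicate 4.

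Stab1 was the steadiest of the 10 genes, with library values from 62.5 to 88.9 CPM and group means of 76.3 ± 0.542 CPM in dKO_HFD, 68.1 ± 5.50 in dKO_chow, 79.4 ± 9.16 in IL4KO_HFD, 78.8 ± 5.54 in IL4KO_chow, 74.7 ± 10.5 in WT_HFD and 78.2 ± 3.45 in WT_chow. All 4 dKO_chow libraries lay below all 4 WT_chow libraries, but at a log2 change of -0.20 the difference missed the threshold (FDR 0.0628), as did that from IL4KO_chow (log2 change -0.21, FDR 0.0517). These lay on the edge of the call: without dKO_chow replicate 3 or 4 they were called at FDR 0.0437 and 0.0359 against WT_chow and at 0.0443 and 0.0383 against IL4KO_chow, the last also at 0.0182 without IL4KO_chow replicate 4. DESeq2 called both, at FDR 0.04 and 0.0435. Over the 9 pairs the 95% intervals of the Stab1 fold stayed between 0.763 and 1.27.

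Kdr encodes vascular endothelial growth factor receptor 2, the main signalling receptor for VEGF on endothelium, and lies at chr5:75932827-75978458 on the minus strand (mm10) with no overlapping gene. It was at 45.3, 48.9, 45.5 and 51.5 CPM in dKO_HFD libraries, against 36.5, 39.2, 39.0 and 44.3 CPM in dKO_chow libraries. IL4KO livers held 38.6, 37.0 and 44.1 CPM on HFD, against 51.9, 53.5, 51.0 and 50.1 CPM on chow. WT livers held 44.6, 35.0, 40.7 and 39.2 CPM on HFD, against 49.3, 43.5, 45.7 and 51.1 CPM on chow. Every dKO library on HFD lay above every dKO library on chow, every IL4KO library on HFD lay below every IL4KO library on chow, and the WT groups overlapped at 1 library of each diet. The order of means was IL4KO_chow, dKO_HFD, WT_chow, IL4KO_HFD, WT_HFD and dKO_chow, and all neighbours overlapped.

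Diet moved Kdr in opposite directions. It rose 1.20-fold to 47.8 ± 2.96 CPM in dKO_HFD, against 39.7 ± 3.26 CPM in dKO_chow (log2 change 0.27, SE 0.08, FDR 0.00884), and without dKO_HFD replicate 4 the log2 change was 0.24 with an FDR of 0.0196. It fell to 39.9 ± 3.74 CPM in IL4KO_HFD, against 51.7 ± 1.41 CPM in IL4KO_chow (0.772-fold, log2 change -0.37, FDR 0.0102), and to 39.9 ± 3.94 CPM in WT_HFD, against 47.4 ± 3.46 CPM in WT_chow (0.842-fold, log2 change -0.25, FDR 0.0296). The diet effect in dKO exceeded that in WT by 0.52 on the log2 scale (SE 0.11, FDR 0.00361) and that in IL4KO by 0.64 (SE 0.12, FDR 0.00125), and both differences were called under every alternative run. The single diet effects were less firm. The IL4KO fall was lost without IL4KO_HFD replicate 2 (log2 change -0.31, FDR 0.107). The WT fall was lost at FDR 0.0899 and 0.07 without WT_HFD replicate 2 and 4, at 0.0554 and 0.0794 without WT_chow replicate 1 and 4, and at 0.0544 with the WT groups fitted alone. The dKO rise missed the threshold with upper quartile scaling (FDR 0.0564) and on the deposited log2 values (FDR 0.0528).

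Between genotypes, Kdr was lower in dKO_chow than in WT_chow (log2 change -0.25, FDR 0.0108) and than in IL4KO_chow (0.769-fold, log2 change -0.38, FDR 0.000485), and higher in dKO_HFD than in WT_HFD (log2 change 0.26, FDR 0.0181). The comparison with IL4KO_chow kept its call under every alternative run. That with WT_chow was lost with upper quartile scaling (FDR 0.0656) and on the deposited log2 values (FDR 0.0603). The HFD comparison of Kdr was lost at FDR 0.052 without dKO_HFD replicate 4 (log2 change 0.22) and at 0.0723 without WT_HFD replicate 2, and at 0.0545 with those groups fitted alone. Kdr in dKO_HFD against IL4KO_HFD did not overlap and was not called (log2 change 0.26, FDR 0.104), and was called at FDR 0.0294 without IL4KO_HFD replicate 3.

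Pecam1 encodes the junctional adhesion molecule CD31, found on endothelium of every vessel type and on platelets and some leukocytes, and lies at chr11:106654217-106750628 on the minus strand (mm10). Its group means were 30.9 ± 4.69 CPM in dKO_HFD, 32.6 ± 3.42 in dKO_chow, 36.4 ± 10.2 in IL4KO_HFD, 28.2 ± 1.77 in IL4KO_chow, 34.9 ± 3.96 in WT_HFD and 29.6 ± 3.92 in WT_chow, and all groups overlapped. It passed the test in 0 of 9 pairs, with a lowest FDR of 0.123 for IL4KO_HFD against IL4KO_chow (log2 change 0.37). The IL4KO_HFD libraries were at 35.8, 46.9 and 26.6 CPM, and without replicate 3, the lowest, the log2 change of Pecam1 was 0.56 with an FDR of 0.0117, while without replicate 2, the highest, it was 0.16 with an FDR of 0.673. The 95% intervals of the Pecam1 fold over the 9 pairs ran from 0.680 to 1.61, so changes of that size are within what these data allow.

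Cd34 encodes a sialomucin of blood vessel endothelium outside the sinusoids and of hematopoietic progenitors, and lies at chr1:194938819-194961279 on the plus strand (mm10), overlapping the antisense gene Gm16897. It rested on few counts, 61 to 130 per library in dKO_chow and 8 to 56 elsewhere. It was at 1.43, 0.742, 2.60 and 0.937 CPM in dKO_HFD libraries, against 4.26, 3.88, 3.79 and 2.85 CPM in dKO_chow libraries. In IL4KO livers it was at 2.29, 3.13 and 1.35 CPM on HFD, against 1.48, 1.81, 1.29 and 1.95 CPM on chow. In WT livers it was at 2.22, 1.62, 1.87 and 1.04 CPM on HFD, against 1.39, 1.55, 0.725 and 0.846 CPM on chow. The dKO_chow libraries were above every other library except IL4KO_HFD replicate 2, which exceeded the lowest of them. Means ran in the order dKO_chow, IL4KO_HFD, WT_HFD, IL4KO_chow, dKO_HFD and WT_chow, and all neighbours overlapped.

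Cd34 rose 3.24-fold to 3.70 ± 0.601 CPM in dKO_chow, against 1.13 ± 0.403 CPM in WT_chow (95% interval 1.99 to 5.30, log2 change 1.70, SE 0.34, FDR 0.000405). Against 1.63 ± 0.301 CPM in IL4KO_chow the log2 change was 1.17 (FDR 0.00701). In dKO_HFD it fell to 1.43 ± 0.834 CPM, which is 0.392-fold of dKO_chow (95% interval 0.250 to 0.616, log2 change -1.35, SE 0.31, FDR 0.0018), and without dKO_HFD replicate 4 the log2 change was -1.21 with an FDR of 0.00435. These 3 calls were kept under every alternative run. Cd34 on HFD had a log2 change of 0.48 in IL4KO (FDR 0.485) and 0.55 in WT (FDR 0.332), neither called. The dKO diet effect differed from that of WT by -1.90 (SE 0.49, FDR 0.00935) and from that of IL4KO by -1.83 (SE 0.51, FDR 0.0129). The difference from IL4KO was lost without IL4KO_HFD replicate 2 (-1.51, FDR 0.0857) and with counts thinned to the smallest library (FDR 0.0516).

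Hematopoietic progenitor and granulocyte markers were, like Cd34 by its means, highest in dKO_chow. Their summed level was 15.3 to 72.7 CPM in dKO_HFD, 115 to 303 in dKO_chow, 14.7 to 20.2 in IL4KO_HFD, 12.8 to 25.6 in IL4KO_chow, 17.3 to 19.5 in WT_HFD and 13 to 28.6 in WT_chow. Of the 12 markers tested, 9 were called higher and 0 lower in dKO_chow against WT_chow, where 24.4% and 21.9% of all tested genes were. In dKO_HFD against dKO_chow 0 were higher and 9 lower, where 19.4% and 20.5% of all tested genes were. Of the 12 markers 3, the granulocyte precursor genes Mpo, Elane and Ctsg, were at 0 in all IL4KO_HFD libraries. Ctsg and Ms4a3 were at 0 in all IL4KO_chow libraries, and Ms4a3 in all WT_HFD libraries. The IL4KO_HFD libraries are among the smallest, and their marker sums lay within the range of WT_chow. Cd34 was at 1.35 to 3.13 CPM in them. Within dKO_HFD, replicate 4 had the marker sum of 72.7 CPM and 0.937 CPM of Cd34, while replicate 3 had 15.4 CPM and 2.60 CPM of Cd34. Their part in the Cd34 differences was not tested.

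Oit3 encodes a zona pellucida domain protein made mainly in liver, where its promoter has been used to mark sinusoidal endothelium in mice, and lies at chr10:59422958-59441778 on the minus strand (mm10) with no overlapping gene. It was at 51.4, 46.5, 47.8 and 39.1 CPM in dKO_HFD libraries, against 34.7, 33.9, 39.2 and 38.8 CPM in dKO_chow libraries. IL4KO livers contained 53.4, 56.9 and 50.6 CPM on HFD, against 53.0, 59.2, 51.3 and 55.2 CPM on chow. WT livers contained 51.7, 54.5, 43.8 and 53.7 CPM on HFD, against 50.8, 39.7, 49.1 and 49.9 CPM on chow. All 4 dKO_chow libraries lay below all libraries of IL4KO and WT, and touched the dKO_HFD range only at dKO_HFD replicate 4. The order of means was IL4KO_chow, IL4KO_HFD, WT_HFD, WT_chow, dKO_HFD and dKO_chow, and all neighbours overlapped.

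Oit3 fell to 36.7 ± 2.75 CPM in dKO_chow, against 47.4 ± 5.15 CPM in WT_chow (0.774-fold, log2 change -0.37, SE 0.09, FDR 0.00221) and 54.7 ± 3.43 CPM in IL4KO_chow (0.670-fold, log2 change -0.58, SE 0.09, FDR 3.63e-05). In dKO_HFD it was at 46.2 ± 5.16 CPM, a 1.26-fold rise over dKO_chow (95% interval 1.11 to 1.44, log2 change 0.34, FDR 0.00511), and without dKO_HFD replicate 4 the log2 change was 0.41 with an FDR of 0.000554. All 3 calls of Oit3 were kept under every alternative run. Oit3 passed the test in neither the IL4KO nor the WT diet effect (log2 changes -0.03 and 0.11). The difference of the dKO diet effect from that of IL4KO was 0.36 (FDR 0.0509) and from that of WT 0.23 (FDR 0.194). Both were called without dKO_HFD replicate 4, at 0.44 (FDR 0.0115) and 0.31 (FDR 0.0498), and the first also at FDR 0.0445 without dKO_chow replicate 3 and at 0.048 without IL4KO_chow replicate 3.

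Gpr182 encodes an atypical chemokine receptor of sinusoidal and lymphatic endothelium and lies at chr10:127747276-127751732 on the minus strand (mm10), overlapping Zbtb39 on the other strand. Its means were 26.9 ± 2.01 CPM in dKO_HFD, 27.5 ± 1.85 in dKO_chow, 27.8 ± 4.17 in IL4KO_HFD, 30.9 ± 2.42 in IL4KO_chow, 24.1 ± 3.02 in WT_HFD and 28.6 ± 1.19 in WT_chow, with library values from 21.7 to 34.2 CPM. It passed the test in 0 of 9 pairs, and its lowest FDR was 0.0647, for WT_HFD against WT_chow (log2 change -0.25). Gpr182 was at 28.4, 23.9, 21.7 and 22.2 CPM in the WT_HFD libraries, and without replicate 1, the highest, the log2 change was -0.34 with an FDR of 0.0161. The 95% intervals of its fold over the 9 pairs ran from 0.737 to 1.34.

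Per kilobase of exon, Clec4g and Oit3 stood highest among the 10 genes in most groups. In WT_chow Clec4g was at 24.1 ± 3.75 CPM per kilobase and Oit3 at 16.99 ± 1.85, while Lyve1 was at 5.28 ± 1.14, the 7th of the 10. In WT_HFD Oit3 came first at 18.3 ± 1.76 CPM per kilobase, Clec4g followed at 16.97 ± 1.39, and Lyve1 came next at 13.02 ± 3.54. In IL4KO_HFD Lyve1 came first at 22.5 ± 10.3 CPM per kilobase. Cd34 was last in all 6 groups, from 0.155 in WT_chow to 0.507 in dKO_chow on the same scale. Summed over the 10 genes, the level was 387 to 431 CPM in dKO_HFD, 347 to 407 in dKO_chow, 407 to 518 in IL4KO_HFD, 414 to 457 in IL4KO_chow, 362 to 445 in WT_HFD and 399 to 414 in WT_chow.

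**Figure D2:**
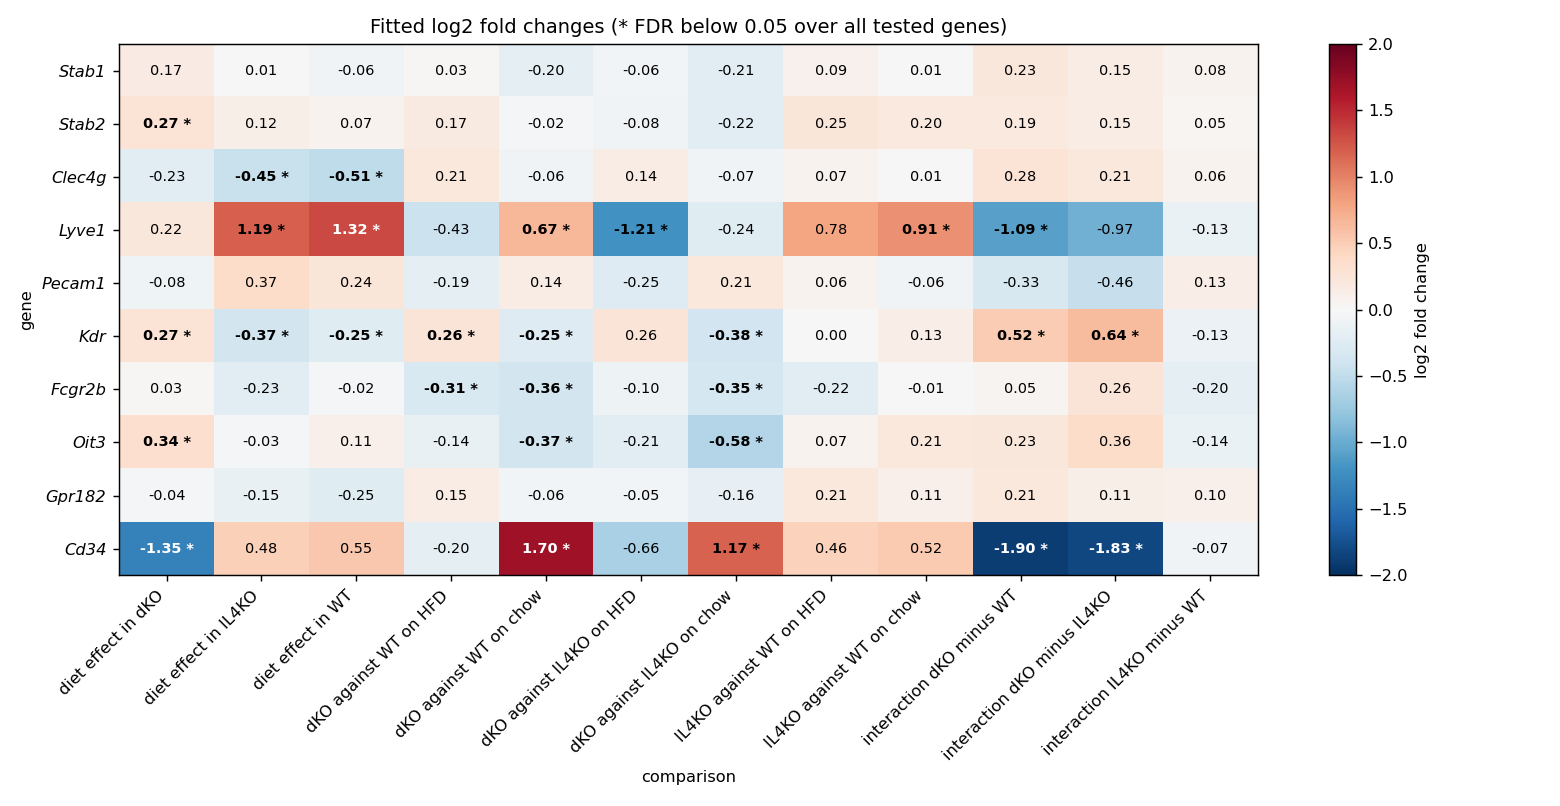
Fitted log2 fold changes of the 10 genes (rows) in 9 pairs and 3 differences between diet effects (columns), red for higher and blue for lower in the first-named group, with asterisks at FDR below 0.05. Stab1, Pecam1 and Gpr182 have no asterisk in any pair, while Lyve1 has 5, Kdr 6 and Cd34 3 over the pairs.

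Counts per comparison can be read against those of all tested genes. In dKO_HFD against dKO_chow, 3 of the 10 rose (Stab2, Kdr and Oit3) and 1 fell (Cd34), while 19.4% of tested genes rose and 20.5% fell. In IL4KO_HFD against IL4KO_chow, 1 rose (Lyve1) and 2 fell (Clec4g and Kdr), against backgrounds of 5.14% and 3.94%. Without IL4KO_HFD replicate 2 all of these calls were lost, at FDR 0.14 for Lyve1, 0.251 for Clec4g and 0.107 for Kdr. In WT_HFD against WT_chow the same 3 genes were called in the same directions, where 9.63% of tested genes rose and 9.84% fell. In dKO_chow against WT_chow, 2 were higher (Lyve1 and Cd34) and 3 lower (Kdr, Fcgr2b and Oit3), against 24.4% and 21.9% of tested genes. In dKO_chow against IL4KO_chow, 1 was higher (Cd34) and 3 lower (Kdr, Fcgr2b and Oit3), against 23% and 22.2%. In dKO_HFD against WT_HFD, 1 was higher (Kdr) and 1 lower (Fcgr2b), against 12.9% and 11.6%. In dKO_HFD against IL4KO_HFD, 0 were higher and 1 lower (Lyve1), against 0.946% and 1.56%. In IL4KO_chow against WT_chow, 1 was higher (Lyve1) and 0 lower, against 5.93% and 3.68%. In IL4KO_HFD against WT_HFD edgeR called 0 in either direction, where 1.73% of tested genes were higher and 1.29% lower, DESeq2 and limma-voom also called 0, and 3 had an unadjusted p below 0.05. Comparisons that share a group, such as the 3 that use dKO_chow, are not independent of each other.

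For all 10 genes the median log2 change was 0.097 in the dKO diet effect, -0.0087 in that of IL4KO and 0.024 in that of WT, where the medians of all tested genes were -0.020, -0.00026 and -0.0029. The median furthest from that of all genes was -0.22 in dKO_chow against IL4KO_chow, where all tested genes had 0.0075. These medians mix rises and falls, and no test was made of the 10 genes as a set.

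**Figure D3:**
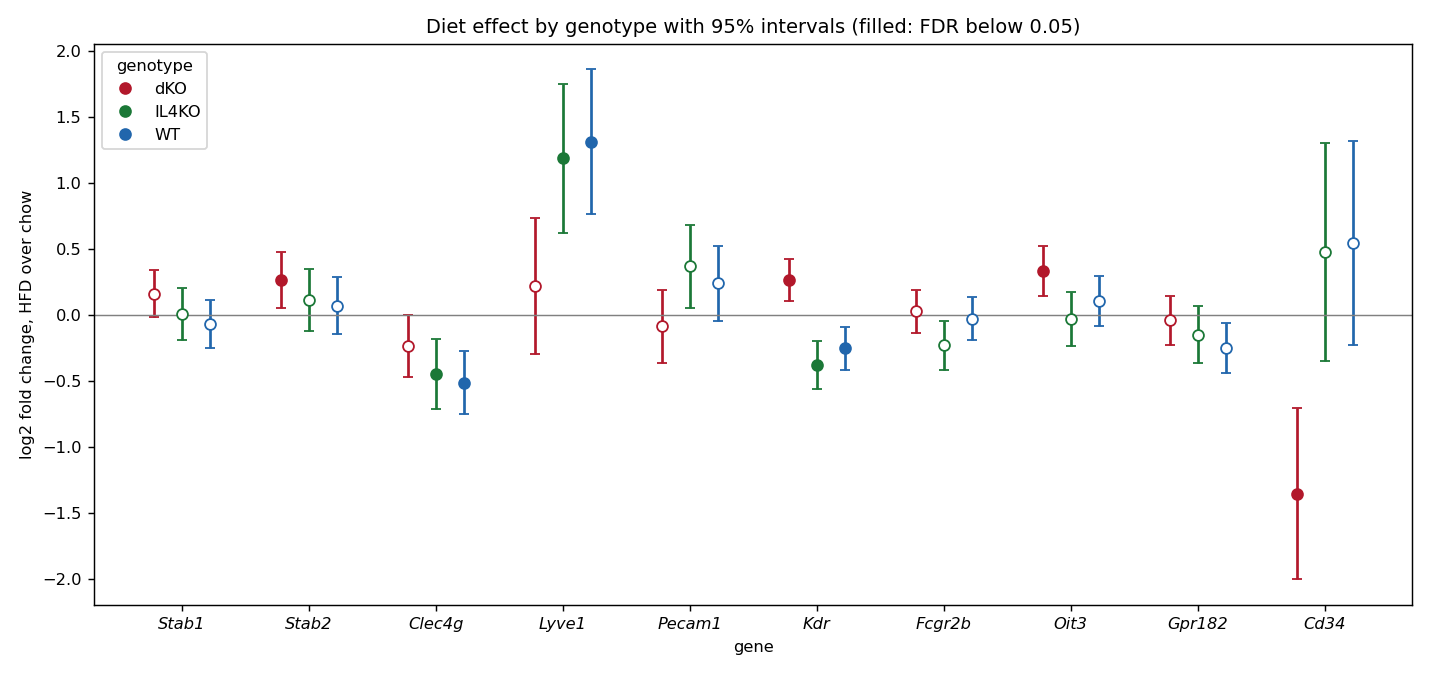
Diet effect (HFD over chow, log2) of each of the 10 genes in dKO, IL4KO and WT livers, with 95% intervals; filled points passed FDR below 0.05. The intervals of Kdr lie above 0 in dKO and below 0 in IL4KO and WT, and that of Cd34 lies below 0 in dKO only.

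The difference between diet effects was tested for each gene and pair of genotypes. Between dKO and WT, 1 gene had a higher diet effect in dKO (Kdr) and 2 a lower one (Lyve1 and Cd34), where 12.6% of tested genes were higher and 12.6% lower. The diet effect of Lyve1 was lower in dKO by -1.09 (SE 0.36, FDR 0.0332). That difference was lost at FDR 0.0776 without dKO_HFD replicate 2 and at 0.0679 without dKO_chow replicate 3, and without WT_HFD replicate 1, 2 or 4 it stood at FDR 0.0647, 0.0674 and 0.0517. Without WT_chow replicate 2, 3 or 4 it stood at FDR 0.0685, 0.0578 and 0.0559. Between dKO and IL4KO, 1 was higher (Kdr) and 1 lower (Cd34), against 12.7% and 11.7% of tested genes. Lyve1 missed the threshold there (-0.97, FDR 0.0601) and passed it under DESeq2 (FDR 0.0337), with upper quartile scaling (FDR 0.0446), without IL4KO_chow replicate 2 (FDR 0.0416) and without IL4KO_HFD replicate 3 (FDR 0.0133). Without IL4KO_HFD replicate 2 it was -0.54 (FDR 0.314). Pecam1 had -0.46 (FDR 0.0996) in the same difference, with FDR 0.0362 without dKO_HFD replicate 4 and 0.0136 without IL4KO_HFD replicate 3, and it was -0.23 (FDR 0.466) without IL4KO_HFD replicate 2. Between IL4KO and WT edgeR called 0 of the 10, where 0.0155% of tested genes were higher and 0.031% lower. DESeq2 and limma-voom also called 0 there, and 0 had an unadjusted p below 0.05. For Lyve1 that difference was -0.13 with a 95% interval of -0.91 to 0.66, which leaves room for sizeable differences in either direction.

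Other endothelial genes were taken from lists chosen by role. Their counts stand beside the shares of all tested genes given above, such as 24.4% higher and 21.9% lower in dKO_chow against WT_chow and 9.63% and 9.84% in the WT diet effect, and no list was tested as a set. These shares were 19.4% and 20.5% in the dKO diet effect and 5.14% and 3.94% in that of IL4KO. In dKO_HFD against WT_HFD they were 12.9% and 11.6%. Of 24 further sinusoidal genes 22 were tested. In the diet effect 1 rose and 2 fell in dKO, 2 rose and 2 fell in IL4KO, and 1 rose and 6 fell in WT. Dnase1l3, a secreted DNase of sinusoidal endothelium, fell to 45.5 ± 3.95 CPM in IL4KO_HFD, against 67.7 ± 1.87 CPM in IL4KO_chow (log2 change -0.57, FDR 0.00015). It also fell to 49.9 ± 1.16 CPM in WT_HFD, against 64.4 ± 3.50 CPM in WT_chow (log2 change -0.37, FDR 0.000847). In WT the water channel gene Aqp1 (log2 change -0.58, FDR 0.00128), Gata4, a transcription factor that sets sinusoidal identity (-0.52, FDR 0.00337), and Bmp6, the endothelial signal that sets hepatocyte hepcidin (-1.24, FDR 0.00176), fell as well. In dKO_chow against WT_chow 5 were higher and 6 lower, among them Bmp2, which acts with Bmp6, at 11.9 ± 0.825 CPM in dKO_chow and 20.9 ± 2.60 CPM in WT_chow (log2 change -0.81, FDR 1.91e-05), and the alarmin Il33 (log2 change 1.80, FDR 0.000185). In dKO_chow against IL4KO_chow 6 were higher and 7 lower, where 23% and 22.2% of all tested genes were. Both comparisons call a large share of any genes, so these counts are not read as a feature of the list. In dKO_HFD against WT_HFD 2 were higher and 0 lower, namely Gata4 (0.59, FDR 0.000809) and the semaphorin receptor gene Plxnc1 (0.91, FDR 0.00112). The named genes kept their calls without any single library, while the list's counts moved: the dKO diet effect gave 4 rises and 3 falls without dKO_HFD replicate 4, and that of IL4KO 0 rises and 1 fall without IL4KO_HFD replicate 2.

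Pan-endothelial genes, 22 of 22 tested, numbered 0 higher and 2 lower in the dKO diet effect, 1 and 1 in that of IL4KO, and 3 and 0 in that of WT. The sialomucin gene Emcn rose to 5.65 ± 0.750 CPM in WT_HFD, against 3.22 ± 0.556 CPM in WT_chow (log2 change 0.82, FDR 0.00465). S1pr1, the endothelial receptor for sphingosine-1-phosphate, fell on HFD in dKO (log2 change -0.70, FDR 0.0013) and in IL4KO (-1.02, FDR 0.0018). In dKO_HFD against WT_HFD 0 were higher and 6 lower, where 12.9% and 11.6% of all tested genes were. These included the junction gene Esam at 14.3 ± 0.604 CPM in dKO_HFD and 20.7 ± 1.44 CPM in WT_HFD (log2 change -0.54, FDR 0.000636), Emcn (-0.76, FDR 0.00465, and 0.0587 on thinned counts) and the adhesion gene Icam2 (-0.79, FDR 0.0102). In dKO_chow against WT_chow 1 was higher, S1pr1 (0.66, FDR 0.00182), and 3 were lower, among them Esam (-0.46, FDR 0.000816) and Mmrn2, an extracellular matrix gene of endothelium (-0.51, FDR 0.0016). With 1 library left out, the 6 lower genes in dKO_HFD ranged from 4 to 7 and the 3 rises in WT_HFD from 1 to 4, the 1 without WT_chow replicate 1 or 3. On the deposited log2 values the 6 came to 3. The IL4KO diet effect gave 7 rises without IL4KO_HFD replicate 3 and 0 without IL4KO_HFD replicate 2, and the dKO diet effect gave 2 rises without dKO_HFD replicate 4.

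The VEGF pathway list held 20 genes, ligands, receptors and genes of sprouting endothelium besides Kdr, of which 18 were tested. In the diet effect 1 rose and 3 fell in dKO, 1 rose and 0 fell in IL4KO, and 8 rose and 1 fell in WT, where the list's median log2 change was 0.44. The tip cell gene Angpt2, an antagonist of the receptor Tek, was at 9.89 ± 4.91 CPM in WT_HFD and 2.61 ± 0.805 CPM in WT_chow (log2 change 1.94, FDR 0.00382). Its partner ligand Angpt1 (log2 change 1.85, FDR 0.00177) and Apln, a peptide of sprouting vessels (3.94, FDR 0.00304), rose with it; Apln averaged 3.09 ± 2.76 CPM in WT_HFD and 0.206 ± 0.297 CPM in WT_chow. In dKO_HFD against WT_HFD 0 were higher and 8 lower, with a median of -0.45, where 12.9% of all tested genes were higher and 11.6% lower. Angpt2 was at 1.58 ± 0.681 CPM in dKO_HFD and 9.89 ± 4.91 CPM in WT_HFD (-2.73, FDR 0.00023), and Esm1, another tip cell gene, at 1.90 ± 0.779 CPM in dKO_HFD and 16.8 ± 9.32 CPM in WT_HFD (-3.21, FDR 0.000408). In dKO_chow against WT_chow 3 were higher and 3 lower, among them Angpt1 (2.77, FDR 3.45e-06), the Notch target Hes1 (1.10, FDR 0.000832) and the adhesion receptor gene Adgrl4 (-0.39, FDR 0.00839). Leaving out 1 library gave 3 to 9 rises in WT_HFD, the lowest without WT_HFD replicate 4, and 6 to 9 lower genes in dKO_HFD against WT_HFD. The 3 falls in the dKO diet effect came to 1 without dKO_HFD replicate 2, and the IL4KO diet effect gave 0 to 2 rises.

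Genes of capillarised or continuous endothelium, 15 of 16 tested, gave 0 rises and 3 falls in the dKO diet effect, 5 and 0 in that of IL4KO, and 6 and 2 in that of WT. Without IL4KO_HFD replicate 2 the 5 rises in IL4KO came to 0, and without IL4KO_HFD replicate 3 to 10. In WT the laminin genes Lamc1 (log2 change 0.51, FDR 0.00747) and Lamb1 (0.81, FDR 0.0105) rose, and leaving out 1 library gave 2 to 8 rises, the lowest without WT_chow replicate 3 or WT_HFD replicate 1. In dKO_chow against WT_chow 6 were higher and 0 lower, including Nid1, which encodes the basement membrane protein nidogen-1 (1.29, FDR 0.00292), Vwf, the gene of von Willebrand factor (0.99, FDR 0.00286), and the tetraspanin gene Cd9 at 55.5 ± 5.61 CPM in dKO_chow and 17.6 ± 4.11 CPM in WT_chow (1.65, FDR 0.000449). In the dKO diet effect Cd9 (-1.59, FDR 0.000705) and Nid2 (-1.38, FDR 8.72e-06) fell. In dKO_HFD against WT_HFD 0 were higher and 4 lower, where 12.9% and 11.6% of all tested genes were. The count of lower genes came to 0 without WT_HFD replicate 1 or dKO_HFD replicate 2. The 6 higher genes in dKO_chow came to 3 without dKO_chow replicate 2 or 3. Cd9 and the laminins are also made by bile duct, stellate and blood cells, whose marker sums are given below.

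Endothelial adhesion molecules, 8 of 11 tested, gave 0 rises and 3 falls in the dKO diet effect, and 5 genes higher and 0 lower in dKO_chow against WT_chow. Icam1, which binds leukocytes, was at 14.4 ± 12.04 CPM in dKO_HFD and 39.96 ± 1.05 CPM in dKO_chow (log2 change -1.51, FDR 0.00372, and 0.0533 with both groups fitted alone). The dKO_chow level of Icam1 was also higher than the 9.96 ± 1.70 CPM in WT_chow (FDR 0.000492). The hyaluronan receptor gene Cd44 fell in the dKO diet effect (-1.33, FDR 0.00189), as did the junction gene F11r (-0.26, FDR 0.0076). Leaving out 1 library gave 2 to 5 rises in dKO_chow against WT_chow. Within dKO_HFD the adhesion genes summed to 177 CPM in replicate 4 and to 115 to 144 CPM in the other libraries. Macrophage markers moved in the same pairs, as given below, and the part of those cells in the adhesion gene differences was not tested. Angiocrine genes, 11 of 11 tested, gave 1 rise and 0 falls in the dKO diet effect, 0 and 1 in that of IL4KO and 1 and 2 in that of WT; without dKO_HFD replicate 4 the dKO diet effect gave 3 rises and 1 fall. They include Bmp2, Bmp6 and Angpt2, already named in other lists. In dKO_HFD against WT_HFD 2 were lower, Angpt2 and the activin subunit gene Inhbb (-1.62, FDR 0.00178). Scavenger and lectin receptor genes, 9 of 10 tested, share 5 with the 10 genes described above and 3 with the list of further sinusoidal genes. Of the rest, Cd36, a fatty acid receptor gene also made by hepatocytes and macrophages, rose to 126 ± 73.6 CPM in dKO_HFD, against 28.3 ± 4.38 CPM in dKO_chow (FDR 0.000534). It rose as well in IL4KO (log2 change 1.98, FDR 0.00824) and in WT (2.02, FDR 0.00243). The IL4KO rise of Cd36 was lost without IL4KO_HFD replicate 2 (FDR 0.0977).

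**Figure D4:**
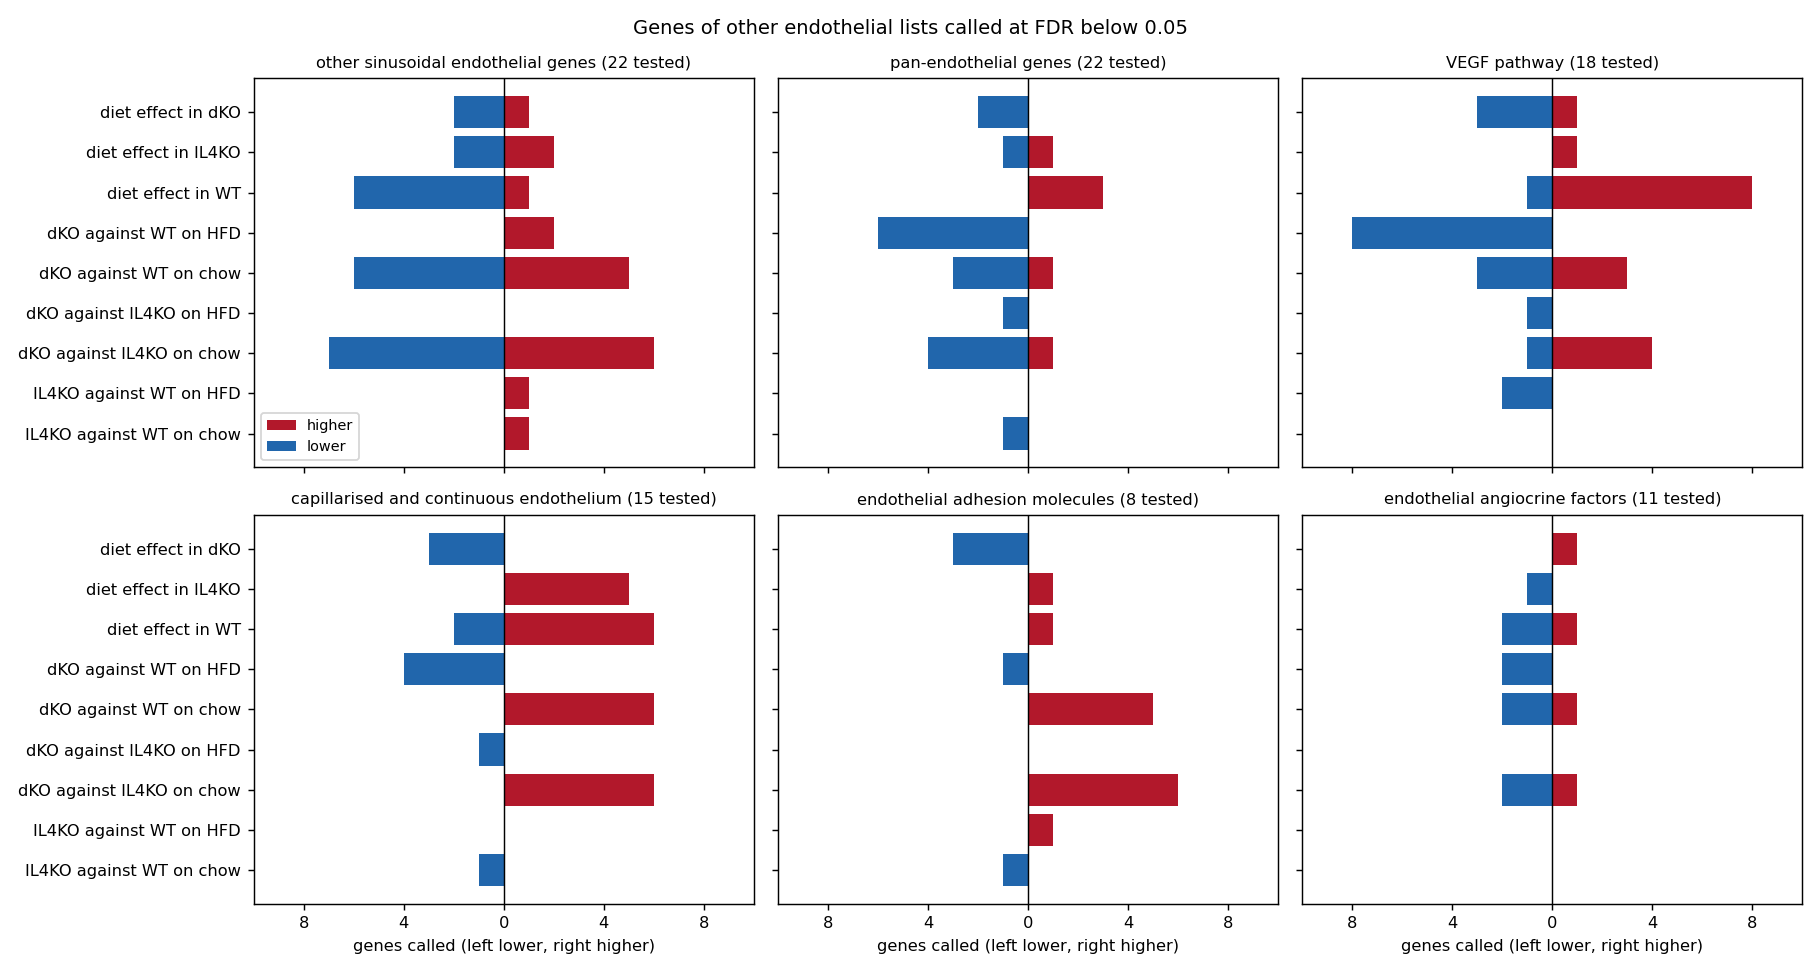
Number of genes called higher (right of 0) and lower (left of 0) at FDR below 0.05 in 6 lists of endothelial genes and 9 pairs of groups. VEGF pathway genes show 8 rises in the WT diet effect and 8 falls in dKO_HFD against WT_HFD. Of all tested genes 9.63% rose in the former and 11.6% were lower in the latter.

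Markers of other cell types differed between the same groups. Of all tested genes, 24.4% were higher and 21.9% lower in dKO_chow against WT_chow. In the dKO diet effect 19.4% rose and 20.5% fell. Of 13 Kupffer cell markers, 11 were higher and 1 lower in dKO_chow against WT_chow, and 0 rose and 11 fell in the dKO diet effect, the sums being 465 to 927 CPM in dKO_HFD, 1110 to 1420 in dKO_chow and 505 to 834 in WT_chow. Of 13 markers of monocyte-derived macrophages, 10 were higher in dKO_chow than in WT_chow and 10 fell in the dKO diet effect, with sums of 143 to 380 CPM in dKO_HFD, 661 to 1060 in dKO_chow and 83.5 to 137 in WT_chow. Cholangiocyte markers, 10 tested, were all higher in dKO_chow, with sums of 616 to 1010 CPM there and 119 to 151 CPM in WT_chow. The macrophage list shares Spp1 with the cholangiocyte list and Cd9 with that of capillarised endothelium, so their counts and sums are not independent. Of 13 hepatocyte markers, 2 were higher and 9 lower in dKO_chow against WT_chow, with sums of 121000 to 136000 CPM in dKO_chow and 150000 to 154000 in WT_chow. Since CPM are shares of a library, the shifts of these lists and of the 10 genes in dKO_chow are set against the same total. Their part in the lower Fcgr2b, Oit3 and Kdr of dKO_chow was not tested.

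Of 14 stellate cell and fibroblast markers, 8 rose in IL4KO_HFD against IL4KO_chow and 6 in WT_HFD against WT_chow, beside the rises of Lyve1. Of all tested genes 5.14% rose in the IL4KO and 9.63% in the WT comparison. Their sums were 544 to 1150 CPM in IL4KO_HFD, 395 to 535 in IL4KO_chow, 715 to 881 in WT_HFD and 479 to 605 in WT_chow. IL4KO_HFD replicate 2, the library with 98.9 CPM of Lyve1, also had the highest sums of its group for stellate markers (1150 CPM), Kupffer markers (844 CPM), macrophage markers (371 CPM) and cholangiocyte markers (654 CPM), and the lowest for hepatocyte markers (111000 CPM). Without it, 1 stellate marker rose in IL4KO_HFD. Lymphatic endothelium also makes Lyve1. The list of lymphatic markers shares Flt4 with the further sinusoidal and VEGF pathway lists and Reln with the stellate list. Its sums need not come from lymphatic cells alone. Of its 8 markers 4 were tested, with sums of 147 to 186 CPM in dKO_HFD, 141 to 167 in dKO_chow, 146 to 183 in IL4KO_HFD, 138 to 168 in IL4KO_chow, 141 to 172 in WT_HFD and 128 to 167 in WT_chow, and no marker at 0 in a whole group. In the comparisons where Lyve1 was called, 0 of these 4 were called in the WT diet effect and in dKO_HFD against IL4KO_HFD. There was 1 higher and 0 lower in the IL4KO diet effect and in IL4KO_chow against WT_chow, and 2 higher and 1 lower in dKO_chow against WT_chow. In the order given, 5.14%, 5.93% and 24.4% of all tested genes were higher and 3.94%, 3.68% and 21.9% lower. B cell markers, 3 of 8 tested, summed to 1.89 to 10.4 CPM over all libraries, and platelet markers, 3 of 8 tested, to 1.95 to 16.6 CPM. The part of these cells in the Lyve1 differences was not tested.

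**Figure D5:**
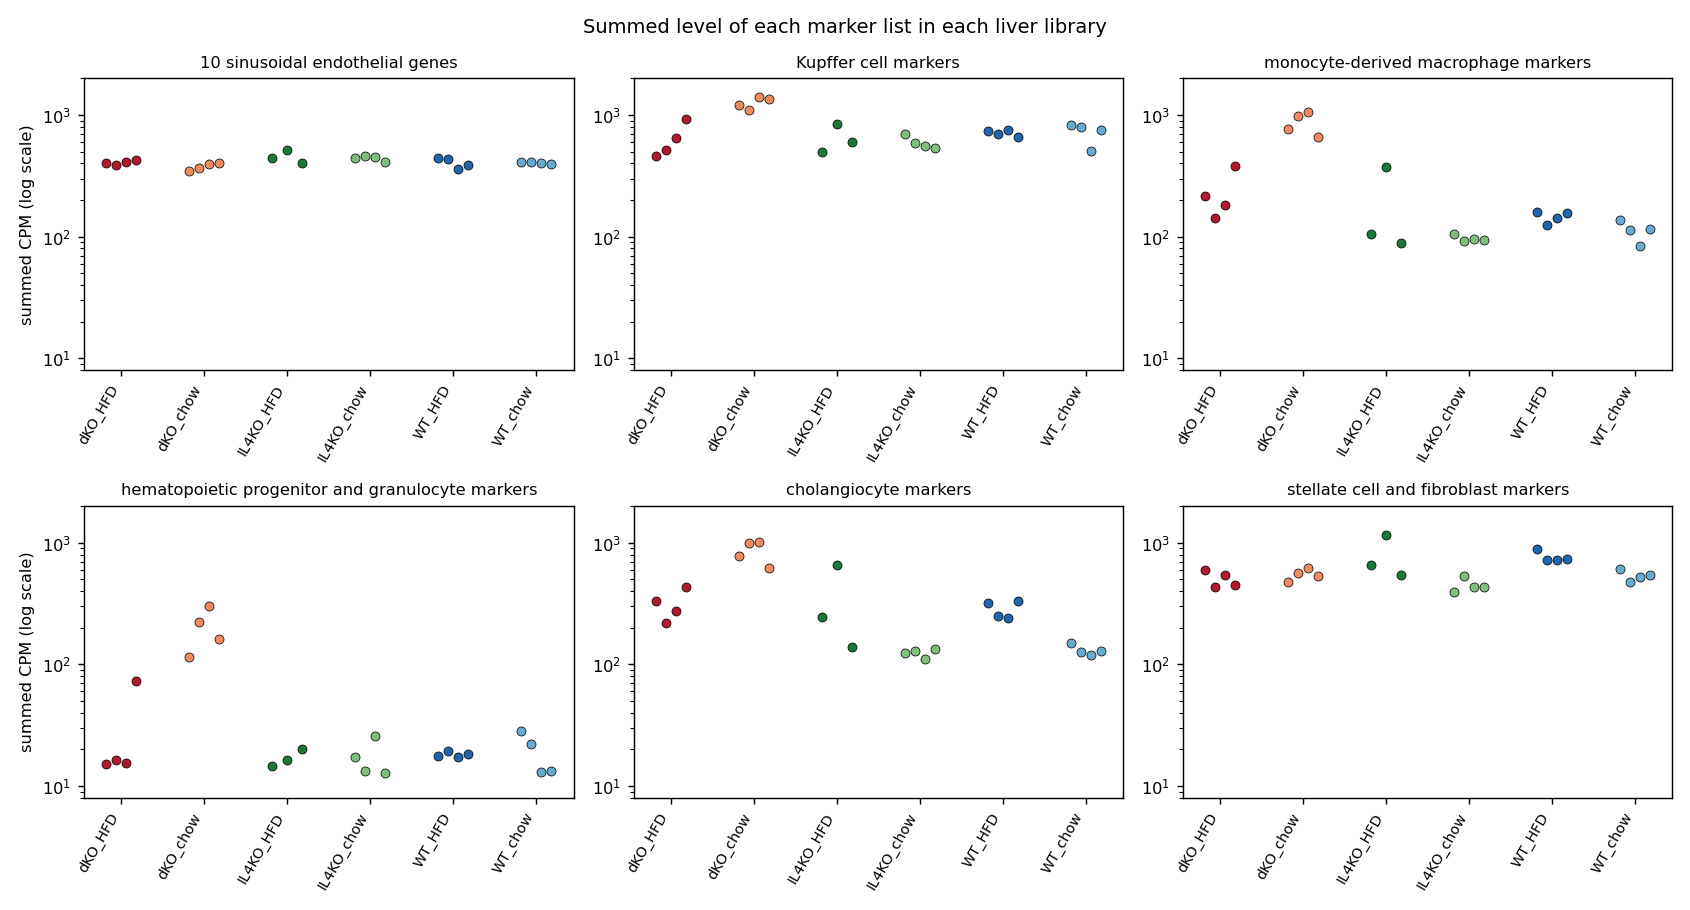
Summed CPM (log axis) of the 10 genes and of marker lists of Kupffer cells, monocyte-derived macrophages, hematopoietic progenitors and granulocytes, cholangiocytes and stellate cells in every library, by group. The 10 genes sum to 347 to 518 CPM in all libraries, while hematopoietic markers run from 12.8 CPM in IL4KO_chow to 303 CPM in dKO_chow.

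Likeness of pattern was measured as the mean absolute difference between log2 CPM centred on each gene's mean over the 23 libraries, among 11370 genes. These distances share libraries and depth and are a description. By this measure genes that vary little lie near each other, so a small distance need not mean a shared pattern. Stab2 was nearest to Stab1 of all genes, at 0.0997, where Stab2 and Stab1 deviated from their own means by 0.146 and 0.102. Pecam1, with its own deviation at 0.185, was nearest to the endothelial cadherin gene Cdh5 at 0.0877, followed by Bsg at 0.107 and the endothelial gene Egfl7 at 0.108. For Lyve1 the nearest were Clec14a, a C-type lectin gene of endothelium, at 0.299, Plvap, a gene of endothelial diaphragms, at 0.318, and Tmem189 at 0.325, where Lyve1 itself deviated from its own mean by 0.503. Cd34 was nearest to Agtrap at 0.324, Fbxo10 at 0.325 and Arhgap27 at 0.331, with its own deviation at 0.555. Stab1 was nearest to Ube2k, Clec4g to Gltscr2, Kdr to Ppp6r1, Fcgr2b to Trappc3, Oit3 to Atp5b and Gpr182 to Pofut1, at 0.0755 to 0.108. Among the 10 genes themselves, Cd34 was the farthest from each of the others except Clec4g, which was farthest from Lyve1 at 0.653.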

How the data were processed

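RNA of 23 perfused mouse livers was sequenced from stranded mRNA libraries, per the labels' protocols. Per the submitters' processing notes, reads were demultiplexed with bcl2fastq 2.16, aligned to mm10 with TopHat2 2.0.8 and quantified in Partek. Which annotation and strand setting the counting used is not given in the sources used here, so reads of overlapping genes on opposite strands may not be separable. The authors deposited estimated counts per gene, 90.6% to 95.9% of them whole within 0.001 in each library, which were rounded here. They also deposited log2 values for 14078 genes, by their values log2 of rounded CPM plus 1 with a shift per library, used as an alternative only.

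edgeR 4.0.16 (R 4.3.3) was run with filterByExpr, TMM factors, 1 mean per group and robust quasi-likelihood, leaving 17 residual degrees of freedom. The 12891 genes that passed the filter were tested in 9 pairs and 3 differences between diet effects, with two-sided p-values adjusted by Benjamini and Hochberg's method within each comparison. CPM are rounded counts over the TMM-scaled library size. Library totals of 7114454 to 30205070 counts set the precision.

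The alternatives were other scalings (DESeq2's size factors, upper quartile), no filter or at least 1 CPM in 4 libraries, DESeq2 1.42.0, limma 3.58.1 with voom and on the log2 values, compared groups alone, no robust step, thinned counts, and each library left out. All 10 genes are described. From 16 role and cell type lists, up to 4 called genes of lowest FDR per list and comparison could be named, predicted genes left out. The text names those that kept their call without any single library, and Cd36 in IL4KO, which did not. Likeness names the 3 nearest other genes with at least 1 CPM on average, in full for Lyve1, Pecam1 and Cd34. The genes and lists were chosen with earlier results of these data known. Positions come from GENCODE release M21 and promoters from RefSeq.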

Additional observations from a re-analysis of the deposited data

Results flagged for a closer look

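Among the 50 sets of one gene in one group of 4 libraries, 3 had a library whose gap to the others was large for the spread of the group; chance gives about 1 in 20, which is near this share. Stab1 was at 75.5 CPM in dKO_HFD replicate 4, with the other libraries at 76.5 to 76.7 CPM, a narrow spread in absolute terms. Lyve1 was at 21.6 CPM in dKO_HFD replicate 2, with the other libraries at 30.9 CPM. Oit3 was at 39.7 CPM in WT_chow replicate 2, with the other libraries at 49.1 to 50.8 CPM.

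Of 30 tests of a difference between the diet effects of a pair of genotypes, 5 passed. On the log2 scale the diet effect in dKO minus that in WT was -1.09 for Lyve1, 0.515 for Kdr and -1.9 for Cd34. The diet effect in dKO minus that in IL4KO was 0.64 for Kdr and -1.83 for Cd34. The comparisons share the dKO libraries. Over all tested genes the difference was called higher for 12.6% and lower for 12.6% in dKO minus WT, higher for 12.7% and lower for 11.7% in dKO minus IL4KO, and higher for 0.0155% and lower for 0.031% in IL4KO minus WT, so the calls among these 10 genes are near the share of any genes.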

How the results depend on the processing

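No paired analysis was possible because the labels carry no replicate numbers, and the numbers used here were given in listing order. Over all alternatives, 2321 of the values for single genes kept their side of the threshold, 64 lost the call and 45 gained it. The sign was the other one in 0 of 553 values of called results and in 92 of 1877 values of results that were not called, none of which was called. Without 1 library, the number of the 10 genes called was 3 to 4 in the diet effect in dKO, 0 to 4 in that in IL4KO and 2 to 4 in that in WT. It was 4 to 5 in dKO against WT on chow, 1 to 2 on HFD, 4 to 6 in dKO against IL4KO on chow, 0 to 2 on HFD, and 0 to 1 in IL4KO against WT on either diet. For the differences between diet effects it was 2 to 4 (dKO and WT), 1 to 4 (dKO and IL4KO) and 0 (IL4KO and WT).

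IL4KO against WT on chow gave 0 calls with no filter, with limma-voom and on thinned counts. With the compared groups alone, the diet effect in IL4KO gave 1, dKO against WT on HFD 1 and dKO against IL4KO on HFD 0, the fits having fewer samples. The deposited log2 values gave 2 in the diet effect in dKO. The difference between the diet effects in dKO and IL4KO gave 4 under DESeq2 and 1 on thinned counts. With both dKO_HFD replicate 4 and IL4KO_HFD replicate 3 removed, an alternative planned with earlier results known, the calls came to 5 in that difference, 5 in dKO minus WT and 2 in dKO against IL4KO on HFD. That setting keeps IL4KO_HFD replicate 2, which lay apart from its group on the first principal component. Pecam1 and Lyve1 were gained in dKO minus IL4KO at FDR 0.00259 and 0.0138. With only IL4KO_HFD replicate 2 left out, they had FDR 0.466 and 0.314 there. Other causes of these moves were not tested. The counts of the gene lists under each alternative were added after seeing the data.

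Scaling moved the balance of calls over all tested genes. With upper quartile factors and with the deposited log2 values, dKO against WT on chow had 3748 higher and 2183 lower and 3460 higher and 2047 lower, against 3148 and 2818 in the reported fit. The diet effect in dKO had 1885 higher and 3340 lower and 1657 and 2919, against 2506 and 2647. In dKO against IL4KO on chow there were 3667 higher and 2092 lower and 3553 and 2001, against 2960 and 2862. The difference dKO minus WT had 1135 higher and 1832 lower and 902 and 1685, against 1624 and 1630, and dKO minus IL4KO had 1157 and 1887 and 1063 and 1747, against 1636 and 1508. In dKO against IL4KO on HFD the deposited log2 values gave 103 higher and 83 lower, against 122 and 201. The median log2 change of all genes in dKO against WT on chow was 0.0239 in the reported fit. It was 0.0945 with upper quartile factors and 0.0773 on the deposited log2 values. These alternatives moved alike there and are not read as separate checks. Fewest counts, hence least precision, stand behind Cd34 and the IL4KO groups.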
